A study of Mus musculus with 16 samples.

Results

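Interferon-stimulated genes (ISGs) are the genes that cells switch on when interferon reaches them, and 44 of them, leaving out the oligoadenylate synthetase (Oas) and interferon regulatory factor (Irf) families, are described here across Ali35 and wild-type mice. They were chosen by symbol, with earlier results of these data known, and every probe annotated to the older or current symbol was taken. Probes were found for 41 of the 44 genes, 59 probes in all of the 25697 on the array. A single probe represented 29 of the genes and several probes 12. Ifi44, Dtx3l and Herc6 were matched by no probe and are not analysed here.

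Total RNA had been hybridized to 16 one-colour Illumina bead arrays, 1 array per mouse, to ask how Ali35 mice differ from wild type. Ali35 is a mutant mouse line that has a mutated Shc2, which encodes an adaptor between receptor tyrosine kinases and Ras. The 4 groups were Ali35 bone and wild-type bone from mice aged 120 days, and Ali35 brain and wild-type brain from pups aged 3 days, with 4 mice each. All mice were of the strain C3H/HeJ, which is known for a defective Tlr4, the receptor for bacterial lipopolysaccharide, and this background is shared by Ali35 and wild type. Tissue and age changed together, and the labels name no sex, zygosity, treatment, dissection of the bone or chip.

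Type I interferons act through the receptor chains Ifnar1 and Ifnar2 and the kinases Jak1 and Tyk2, which activate Stat2 and its partner Irf9. The complex they form part of binds a DNA element of repeated GAAA letters, the interferon-stimulated response element, in the promoters of ISGs. Interferon gamma uses the receptor chains Ifngr1 and Ifngr2 with Jak1 and Jak2, and mainly raises GTPases and antigen presentation genes. In bone, the RNA includes that of the marrow, where blood cells are formed and many cells express ISGs at rest, and in bulk RNA fewer cells of a type and less RNA per cell cannot be told apart.

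Values are normalized intensities in linear, arbitrary units, and a value of 16 was used as the floor below which intensities were not read. Testing in a tissue required a value of 16 or more on 4 or more of its 8 arrays, which left 12223 probes in bone and 10922 in brain. "Called" means a Benjamini-Hochberg adjusted p under 0.05 in limma over all tested probes of the tissue, and log2 changes are Ali35 minus wild type with the moderated standard error (SE). Ali35 bone replicate 1 stood apart by Xist, the RNA of the inactive X chromosome, which read 221 and 167 on its probes there and at most 11.7 on the other bone arrays, so the main count is also given without it. Bone markers were present: 6 of 7 osteoblast genes had a probe and 5 of them were tested in bone, while in brain 3 of 5 neuron genes were tested and Snap25 and Tubb3 were below 16 on every array.

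In Ali35 bone, 16 of the 33 ISGs that could be tested were higher than in wild-type bone and 0 were lower. A gene was counted as higher where at least 1 of its probes was called. Ifit3 was called on 1 of its 3 tested probes, Usp18 on 2 of 3 and Ifi27 on 1 of 2. The 16 genes covered each role. The RNA editing enzyme gene Adar and the secreted protein gene Lgals3bp had the largest called changes (2.53-fold and 2.50-fold). Next came the antiviral gene Ifit3 (2.31-fold on its called probe), the antigen transporter gene Tap1 (2.21-fold) and the antiviral GTPase gene Mx2 (2.15-fold). Rsad2, Ifitm3, Isg15, Usp18, Parp14, Sp100, Dhx58, Igtp, Tap2, Cmpk2 and Ifi27 were the other 11. Counted by probe, 19 of 44 tested member probes were called higher (43.2%), beside 12.7% of all tested probes, and 0 were called lower, beside 11.9%. In either direction 24.6% of all bone probes were called. The members were chosen with earlier results known, so these shares only describe them. The median log2 change was 0.53 over the 44 member probes, a 1.44-fold difference, and -0.04 over all tested probes. Positive values were found for 40 of the 44 probes, and the range was -0.32 to 1.34.

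The Ali35 and wild-type arrays did not overlap for 18 of the 44 probes, all with Ali35 higher, a share of 40.9%. Over all tested probes Ali35 lay wholly above wild type for 13.5% and wholly below for 15.2%. An unadjusted p under 0.05 was found for 26 of the 44 probes (59.1%), beside 38.3% of all tested probes. The count of member probes called higher was 16 without Ali35 replicate 1 and 13 without wild-type replicate 4. In these fits 21.3% and 13.6% of all tested probes were called in either direction. The count was 6 when dim probes were not filtered out, when 5.56% of 25697 probes were called in either direction.

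**Figure D1:**
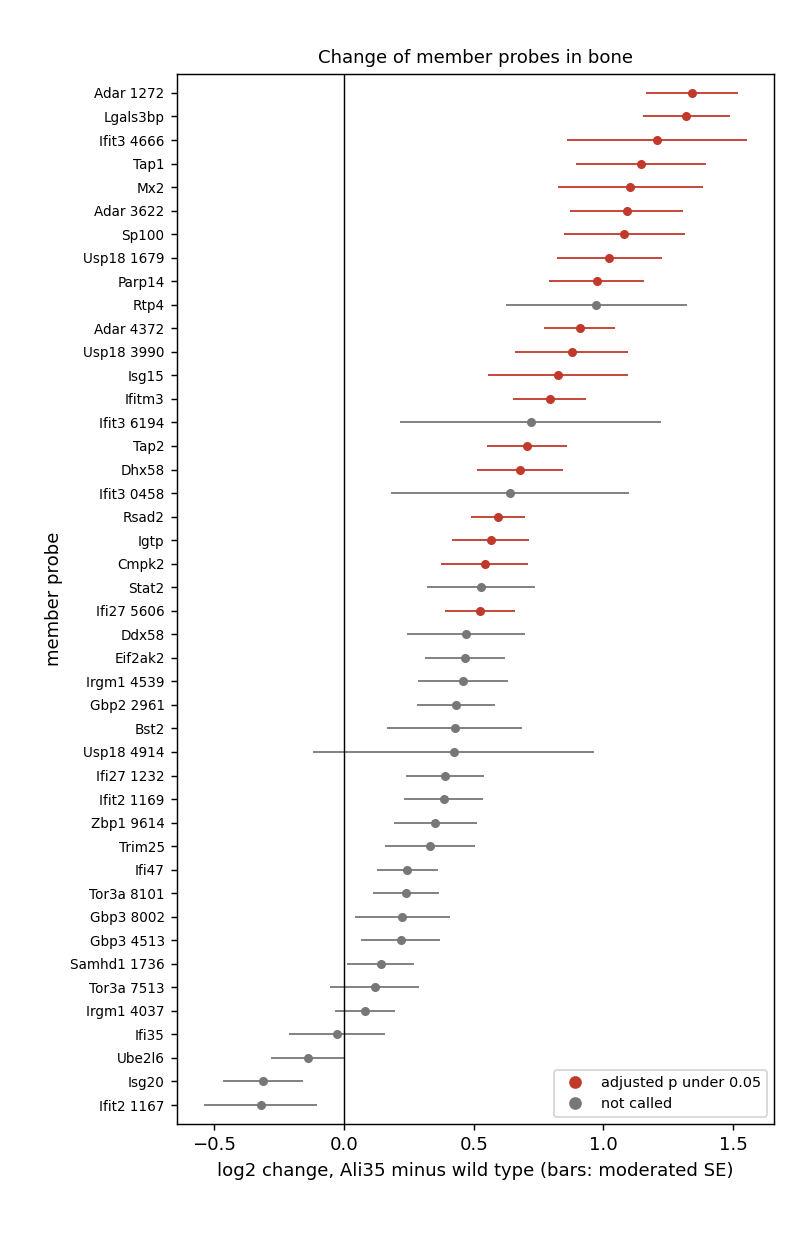
Log2 change of each of the 44 tested member probes in bone, Ali35 minus wild type, with the moderated SE as bars. Red points mark the 19 probes called and grey points those not called, and a number after a symbol is the end of the probe identifier for genes with several probes. The values run from -0.32 for an Ifit2 probe to 1.34 for an Adar probe.

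Promoter sequence was compared because many members moved together. Windows from 250 bases before to 50 after a transcript start, from RefSeq (GRCm38.p6), were held for 32 of the 44 members, and GAAANNGAAA was searched on both strands, with overlapping matches allowed (its reverse complement is TTTCNNTTTC). At least 1 match lay in a window of 16 of the 32 members, beside 1079 of all 27025 genes (3.99%) and 3.44% of all windows. Matches were found for 5 of the 10 members with a window that were called in bone, 7 of the 14 tested but not called and 4 of the 8 not tested. Mx2, Usp18, Dhx58, Parp14, Tap2 and Ifi27, also called in bone, had no window and are not in this comparison. TTCNNNGAA, the letters of the element used by interferon gamma, lay in windows of 9 of the 32 members (3 of the 10 called, 6 of the 14 not called and 0 of the 8 not tested) and of 9.55% of all genes. The 5 called members with a match are printed from 5′ to 3′ on the strand of the gene, with the matches in capitals, and Lgals3bp is printed as the called member with one of the largest changes and no match.
Isg15 (chr4:156200769-156201068, minus strand): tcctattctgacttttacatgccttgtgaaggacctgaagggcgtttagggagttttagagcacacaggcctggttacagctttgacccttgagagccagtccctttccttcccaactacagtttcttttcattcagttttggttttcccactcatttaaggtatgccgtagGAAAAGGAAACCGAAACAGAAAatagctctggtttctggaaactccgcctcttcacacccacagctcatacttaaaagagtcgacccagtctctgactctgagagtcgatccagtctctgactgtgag
Ifit3 (chr19:34583279-34583578, plus strand): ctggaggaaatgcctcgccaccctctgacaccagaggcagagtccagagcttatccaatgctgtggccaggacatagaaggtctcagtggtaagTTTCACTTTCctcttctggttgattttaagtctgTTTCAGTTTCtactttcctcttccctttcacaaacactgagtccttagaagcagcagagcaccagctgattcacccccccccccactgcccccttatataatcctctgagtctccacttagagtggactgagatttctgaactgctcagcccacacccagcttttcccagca
Ifitm3 (chr7:141010695-141010994, minus strand): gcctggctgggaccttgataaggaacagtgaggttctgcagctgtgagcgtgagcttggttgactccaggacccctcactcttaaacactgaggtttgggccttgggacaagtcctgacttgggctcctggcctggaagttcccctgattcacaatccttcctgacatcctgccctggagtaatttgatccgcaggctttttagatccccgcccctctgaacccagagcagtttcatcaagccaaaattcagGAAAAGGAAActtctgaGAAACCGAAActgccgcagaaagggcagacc
Igtp (chr11:58199306-58199605, plus strand): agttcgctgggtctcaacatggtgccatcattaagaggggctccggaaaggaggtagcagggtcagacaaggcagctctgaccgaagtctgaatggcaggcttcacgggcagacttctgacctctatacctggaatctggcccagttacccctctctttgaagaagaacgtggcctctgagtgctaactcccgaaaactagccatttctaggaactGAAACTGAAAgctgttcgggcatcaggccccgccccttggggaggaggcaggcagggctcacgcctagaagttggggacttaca
Rsad2 (chr12:26456403-26456702, minus strand): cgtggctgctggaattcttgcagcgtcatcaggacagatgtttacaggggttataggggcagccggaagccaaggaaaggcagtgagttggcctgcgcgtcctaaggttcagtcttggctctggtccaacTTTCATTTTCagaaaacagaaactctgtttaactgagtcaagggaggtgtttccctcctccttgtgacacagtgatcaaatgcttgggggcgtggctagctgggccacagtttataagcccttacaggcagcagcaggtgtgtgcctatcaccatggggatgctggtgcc
Lgals3bp (chr11:118401910-118402209, minus strand): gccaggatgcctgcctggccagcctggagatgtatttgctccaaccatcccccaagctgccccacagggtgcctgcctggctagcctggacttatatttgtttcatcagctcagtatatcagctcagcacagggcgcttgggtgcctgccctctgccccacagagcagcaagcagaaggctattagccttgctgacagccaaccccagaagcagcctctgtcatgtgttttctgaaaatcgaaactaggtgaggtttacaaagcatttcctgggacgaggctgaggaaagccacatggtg
Distances are from the transcript start on which each window is built. Isg15 held 3 overlapping matches that began 78, 72 and 66 bases before the start and ran together into 1 block. Ifit3 held 2 matches on the opposite strand, 156 and 122 bases before the start of its window, but that start lies 410 bases inside the gene as RefSeq annotates it, so both matches lie within the annotated gene. For the other 5 printed windows the transcript start is the annotated gene start. Rsad2 held 1 match on the opposite strand, 120 bases before it. Igtp held 1 match 34 bases before the start. In Ifitm3 both matches lay after the start, at bases 3 and 20 of the transcribed side. A match describes letters only, and no binding was measured.

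Antiviral effectors formed the largest role group, with 15 genes tested in bone, of which 7 rose. By probe, 9 of 22 were called higher, beside 12.7% of all bone probes. Adar, which edits double-stranded RNA, rose on all 3 of its probes. Probe ILMN_3021272 read 235, 275, 163 and 182 in Ali35 bone, against 70.3, 88.9, 97.4 and 76.5 in wild-type bone. Every Ali35 array lay above every wild-type array, and the change was 1.34 ± 0.18 (adjusted p = 0.00161). Probe ILMN_2704372 read 88.6, 99.6, 74.4 and 82.0 in Ali35 bone, against 50.3, 48.1, 48.4 and 37.0 in wild-type bone. Probe ILMN_3093622 read 112, 169, 129.9 and 91.0 in Ali35 bone, against 77.8, 43.3, 57.4 and 56.3 in wild-type bone. These probes also gave groups that did not overlap, with changes of 0.91 ± 0.14 and 1.09 ± 0.22, and all 3 were called whichever single array was left out.

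Rsad2 encodes viperin, an enzyme that makes a chain-terminating nucleotide, and its neighbour Cmpk2 encodes a mitochondrial nucleotide kinase. The Rsad2 probe read 8180.5, 10291, 9029 and 8328 in Ali35 bone, against 5768, 6257, 5838 and 5782 in wild-type bone. The groups were far apart for the spread within them, and the change was 0.59 ± 0.10 (1.51-fold, adjusted p = 0.00522). Cmpk2 read 409.8, 575, 421 and 372 in Ali35 bone, against 352, 346, 260.4 and 259 in wild-type bone. Its groups lay close together without overlapping (0.54 ± 0.17, adjusted p = 0.0405), and the call was kept only in the fits without wild-type replicate 2 or Ali35 replicate 4, with adjusted p up to 0.112 in the other 6.

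Ifitm3 encodes a membrane protein that hinders the fusion of virus and endosome. It read 10494, 12191, 8057 and 9365 in Ali35 bone, against 5700.0, 5475, 6537 and 5248 in wild-type bone. No array of 1 genotype reached the range of the other (0.79 ± 0.14, adjusted p = 0.00532). Mx2, a dynamin-like GTPase, read 57.6, 80.6, 39.1 and 40.2 in Ali35 bone, against 27.7, 34.0, 22.7 and 11.2 in wild-type bone. The Ali35 arrays were all higher (1.10 ± 0.28, adjusted p = 0.0202), while 1 wild-type array lay below the floor, so the size rests in part on the floor, and the call was lost with a floor of 32 (adjusted p = 0.0817), when dim probes were not filtered out (0.124) and without wild-type replicate 4 (0.0536).

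Ifit3 binds viral RNA together with its relatives and had the widest spread among the called members. Its bright probe ILMN_2944666 read 1269, 1911, 547 and 882 in Ali35 bone, against 625, 497, 387 and 345 in wild-type bone. Ali35 replicate 3 lay inside the wild-type range (1.21 ± 0.35, adjusted p = 0.0318), and the call was kept only without Ali35 replicate 3, Ali35 replicate 4 or wild-type replicate 1, with adjusted p up to 0.0904 in the other 5 fits. The dimmer probes ILMN_1230458 and ILMN_1246194 had changes of 0.64 ± 0.46 and 0.72 ± 0.50 and were not called. Ifit3 has a near-identical neighbour, Ifit3b, and the files do not say which of them a probe reads. Ifi27, a small mitochondrial protein gene, read 4323, 4874, 3239.9 and 4018 in Ali35 bone on probe ILMN_3125606, against 3161, 2762, 2758 and 2659 in wild-type bone. These groups did not overlap (0.52 ± 0.14, adjusted p = 0.0218), but the call was lost without wild-type replicate 2 or 4, while its second probe overlapped and was not called (0.39 ± 0.15, adjusted p = 0.0854).

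Another 8 effector genes were tested in bone and not called. The kinase gene Eif2ak2, whose product halts translation on double-stranded RNA, read 649, 802, 594 and 484 in Ali35 bone, against 503, 465, 432 and 407 in wild-type bone. Only Ali35 replicate 4 fell within the wild-type range, and the adjusted p was 0.0525. Rtp4 had 0.97 ± 0.35 (adjusted p = 0.068), Bst2, which tethers budding virus, 0.43 ± 0.26, and Zbp1, a sensor of Z-form nucleic acid, 0.35 ± 0.16. Samhd1, which degrades nucleotides, had 0.14 ± 0.13, and the probes of Tor3a had 0.24 ± 0.13 and 0.12 ± 0.17. The exonuclease gene Isg20 had -0.31 ± 0.15. The 2 probes of Ifit2 gave opposite signs, -0.32 ± 0.22 and 0.38 ± 0.15, and neither was called.

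Isg15 is a ubiquitin-like protein that is joined to other proteins by Ube2l6 and ligases and removed by Usp18. Isg15 read 2254, 2871, 1645 and 1032 in Ali35 bone, against 1167, 961, 986 and 1008 in wild-type bone. Ali35 replicates 1 to 3 were above every wild-type array and replicate 4 was within the wild-type range. The change was 0.83 ± 0.27 with an adjusted p of 0.0493, and of the 8 fits that left out an array only the 1 without Ali35 replicate 4 kept the call, with adjusted p up to 0.108 in the others.

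Usp18, which also blocks signalling at the type I receptor, was called on 2 of its 3 probes. Probe ILMN_3131679 read 922, 1235, 657 and 701 in Ali35 bone, against 493, 449.8, 386 and 359 in wild-type bone. Probe ILMN_2433990 read 533, 683, 430.3 and 314 in Ali35 bone, against 306, 242, 259 and 225 in wild-type bone. The groups did not overlap on either (1.02 ± 0.20 and 0.88 ± 0.22), and ILMN_2433990 lost its call without wild-type replicate 4. The dim probe ILMN_3054914 read 16.6 on Ali35 replicate 4 and 144 on Ali35 replicate 2 and was not called (0.42 ± 0.54). The conjugating enzyme gene Ube2l6 had -0.14 ± 0.14 and the ligase gene Trim25 0.33 ± 0.17, with overlapping groups and no call. For Trim25, 3 wild-type arrays lay below the floor, so the size of its change rests in part on the floor.

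**Figure D2:**
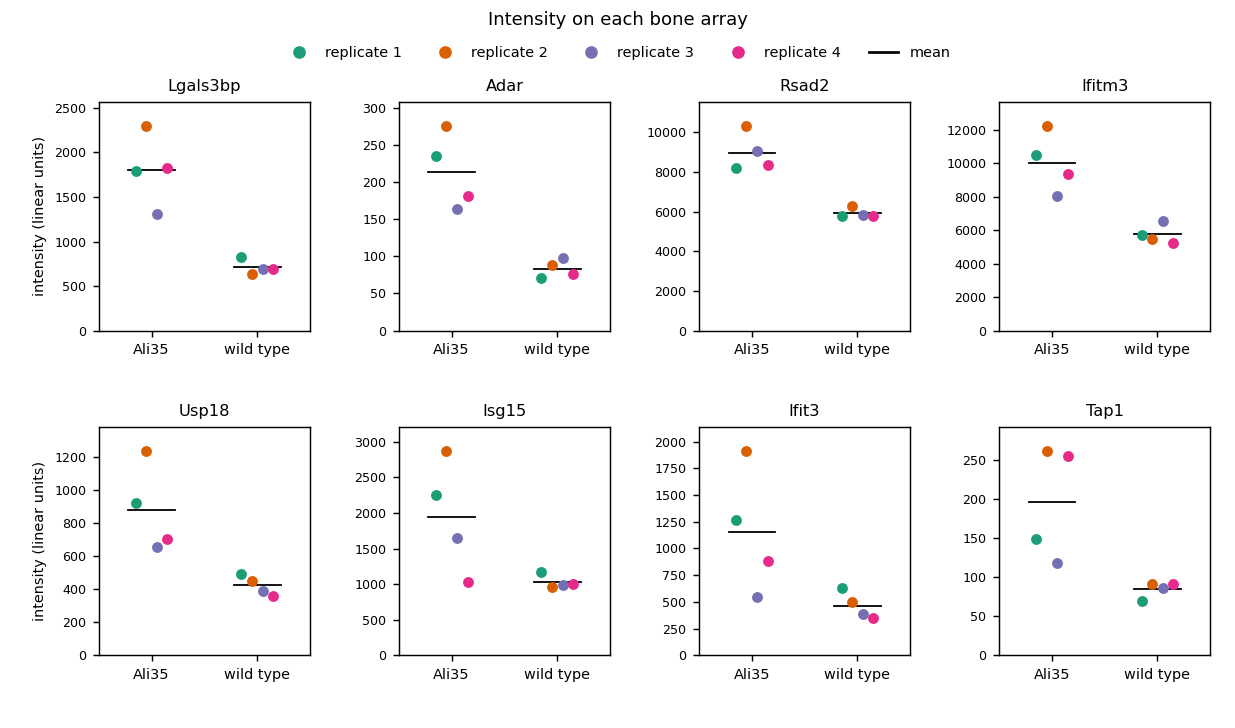
Intensity in linear units on each bone array for 8 called members, with Ali35 on the left and wild type on the right of each panel, 1 colour per replicate number and a line at the mean of the 4 arrays. For Adar, Usp18 and Ifit3 the probe plotted is ILMN_3021272, ILMN_3131679 and ILMN_2944666. Ali35 replicate 2 is the highest point of every panel, and for Isg15 and Ifit3 1 Ali35 array lies within the wild-type range.

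The cytoplasmic RNA sensors are the helicases Ddx58 (RIG-I) and Ifih1 (MDA5) and their regulator Dhx58 (LGP2). Dhx58 read 361, 492, 275 and 314 in Ali35 bone, against 228, 216, 214 and 223 in wild-type bone. The wild-type arrays were tightly grouped and lay below every Ali35 array (0.68 ± 0.16, adjusted p = 0.0178). Ddx58 had 0.47 ± 0.23 with overlapping groups and was not called, and Ifih1 read at most 5.46 on any bone array.

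Among the genes of signalling and transcription, Parp14 and Sp100 rose, out of 4 tested (2 of 4 probes, beside 12.7% of all bone probes called higher). Parp14, an ADP-ribosyl transferase, read 452, 551, 302 and 419 in Ali35 bone, against 224, 247, 219 and 175 in wild-type bone. Sp100, a protein of nuclear bodies, read 125, 171, 99.8 and 92.4 in Ali35 bone, against 45.2, 56.4, 81.6 and 47.1 in wild-type bone. The genotypes did not overlap for either gene (0.97 ± 0.18, adjusted p = 0.00663, and 1.08 ± 0.23, adjusted p = 0.0111). Stat2 itself, the transcription factor of the type I response, read 101, 162, 77.3 and 116 in Ali35 bone, against 68.8, 87.4, 85.0 and 66.7 in wild-type bone. Replicate 3 of Ali35 lay inside the wild-type range and Stat2 was not called (0.53 ± 0.21, adjusted p = 0.0919), nor was Ifi35 (-0.03 ± 0.19).

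Tap1 and Tap2 form the transporter that carries peptides to MHC class I molecules. Both rose (2 of 2 probes, beside 12.7% of all bone probes called higher). Tap1 read 148, 261, 118 and 255 in Ali35 bone, against 68.8, 90.9, 85.9 and 90.7 in wild-type bone. Tap2 read 541, 708, 531 and 651 in Ali35 bone, against 328, 471, 379 and 319.9 in wild-type bone. For both genes Ali35 replicates 2 and 4 were the highest arrays, and the lowest Ali35 array was above the highest wild-type array (1.15 ± 0.25, adjusted p = 0.0116, and 0.70 ± 0.15, adjusted p = 0.0113).

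Of the interferon-inducible GTPases, which act on vacuoles that hold intracellular microbes, 1 of the 5 tested genes rose (1 of 7 probes, near the 12.7% of all bone probes called higher). Igtp read 1475, 2054, 1288 and 1444 in Ali35 bone, against 1061, 975, 982 and 1153 in wild-type bone, and the groups did not overlap (0.57 ± 0.15, adjusted p = 0.0227). The call was lost without wild-type replicates 1, 2 or 3 (adjusted p up to 0.0562). Gbp2 read 422, 614, 366 and 458 in Ali35 bone, against 336, 349, 337 and 333 in wild-type bone. Its groups did not overlap either, but it did not pass (0.43 ± 0.15, adjusted p = 0.062). Ifi47 had 0.24 ± 0.12, the probes of Gbp3 0.22 ± 0.15 and 0.22 ± 0.18, and the tested probes of Irgm1 0.46 ± 0.17 and 0.08 ± 0.12, none of them called.

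Lgals3bp, a secreted glycoprotein that binds galectins, read 1795, 2293, 1309 and 1826 in Ali35 bone, against 828, 638, 691 and 695 in wild-type bone. The lowest Ali35 array was well above the highest wild-type array, and the adjusted p of 0.00127 was the lowest among the members (1.32 ± 0.17). The chemokine gene Cxcl10, which draws T cells, was below the filter in bone, with no array above 19.7. Below the filter were also Ifit1, Mx1, Ifih1, Xaf1, Parp9, Trim30a and Iigp1, 8 genes in all. Mx1, which is known to be defective in most laboratory strains, reached 20.8 on 1 array at most. Nothing is said here about changes in these 8 genes.

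The 4 Ali35 bone mice did not contribute equally. Ali35 replicate 2 was the highest of the 4 Ali35 arrays for 36 of the 44 member probes (81.8%) and for all 19 called probes, while over all 12223 tested probes it was the highest for 25.9%. Ali35 replicate 3 was the lowest for 21 of the 44 and replicate 4 for 18. Relative to the wild-type mean, the median of the 44 member probes was 0.53, 0.94, 0.29 and 0.43 on Ali35 replicates 1 to 4, and 0.16, 0.06, -0.06 and -0.11 on wild-type replicates 1 to 4. Every Ali35 array was therefore above every wild-type array by this median, whereas over all tested probes the 8 medians lay between -0.06 and 0.00.

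**Figure D3:**
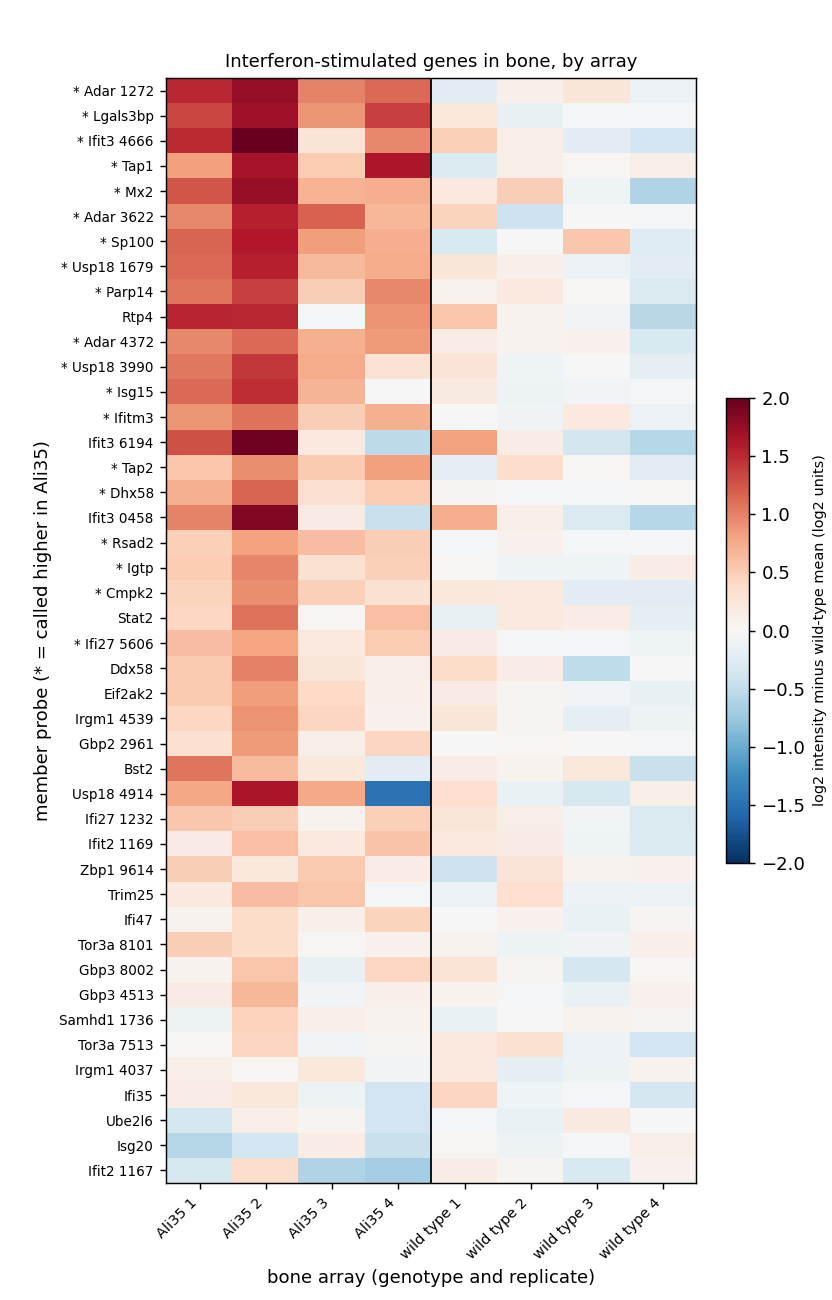
Log2 intensity of the 44 tested member probes on each bone array minus the wild-type mean of the probe, with Ali35 arrays on the left, wild-type arrays on the right and values below 16 set to 16. Asterisks mark the 19 probes called higher. The column of Ali35 replicate 2 is the deepest red, with the highest Ali35 value for 36 of 44 probes.

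The higher level was not carried by a single array. Of the 44 probes, 33, 39, 28 and 27 lay above all 4 wild-type arrays on Ali35 replicates 1 to 4, beside 29.8%, 29.3%, 27.8% and 33.2% of all tested probes. Without Ali35 replicate 2, 16 of the 19 called probes were still called higher and the median change of the members was 0.36, and an Ifit2 probe (ILMN_2981167) was called lower (-0.54, adjusted p = 0.0332). Of all tested probes, 21.6% were called in that fit. The 3 calls lost were those of Cmpk2, Ifit3 and Isg15, which were also the 3 lost without replicate 1. Without replicates 1 and 2 together, 9 of the 19 probes were still called (of Adar, Ifitm3, Lgals3bp, Parp14, Rsad2, Tap1 and Usp18) and the median was 0.34. Of all tested probes, 13.2% were then called. In all, 12 of the 19 calls, of 10 genes, were kept whichever single array was left out, and those genes were Adar, Dhx58, Ifitm3, Lgals3bp, Parp14, Rsad2, Sp100, Tap1, Tap2 and Usp18.

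Markers of other cells were read beside these values. Cartilage markers were called higher on 6 of 6 tested probes, with sums of 11820 to 17289 in Ali35 bone and 2651 to 5510.4 in wild-type bone, and osteoblast markers on 3 of 8. Of 5 macrophage genes tested, Fcgr1, itself interferon-inducible, was called higher (0.68 ± 0.22) and 0 were called lower. The macrophage sum was 15112 to 22880 in Ali35 bone and 26227 to 28067 in wild-type bone, but most of it was Lyz2, which neutrophils also express. The tested probes of Adgre1 had 0.16 ± 0.13 and 0.19 ± 0.13. Those of Cd14, Mrc1 and Lyz2 were all negative, and the median log2 change over the 7 tested macrophage probes was -0.24. Plasmacytoid dendritic cells are strong producers of interferon, and their markers summed to 2552 to 2907 in Ali35 bone and 2450 to 2730 in wild-type bone. Most of that sum was Tcf4, which read 1633 to 1950 in Ali35 bone and 1504 to 1785 in wild-type bone and was bright in brain too, where Siglech, Ccr9, Ly6d and Irf8 were below 16 on every array. Their more specific marker Siglech was called lower on 1 of its 2 tested probes, the dimmer, Ly6d was not called (-0.27 ± 0.20 and -0.26 ± 0.21), and Ccr9 was below 16 on every array. Neutrophil markers summed to 129340 to 147760 in Ali35 bone and 116990 to 127680 in wild-type bone, with 2 of 7 genes higher. B cell markers summed to 1988 to 3066 in Ali35 bone and 3669 to 4175 in wild-type bone, with Cd79b lower and Pax5 below 16 on every array, while T and NK markers gave 0 calls among 3 genes tested. Of the muscle markers 1 of 4 tested probes was called (Myh4, higher, 2.07-fold) and of the endothelial markers 1 of 5 (Cdh5, higher, 1.65-fold). Of the fat markers 1 of 3 was called (Lep, lower, 4.29-fold), and of the erythroid markers 0 of 3. The sums of the muscle, endothelial and fat lists overlapped between the genotypes. Ali35 replicate 2 had the highest macrophage and neutrophil sums among the Ali35 arrays, and the part of cell composition in the ISG values was not tested.

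Of the other genes of the interferon pathway, 24 of 27 had a probe and 17 were tested in bone, where 2 of 25 probes were called higher (Irf7 and Tyk2) and 4 lower (of Jak2 and Ifngr2), in all about the 24.6% of all bone probes called. The kinase gene Tyk2 read 426, 487, 393 and 485 in Ali35 bone, against 249, 382, 354 and 317 in wild-type bone, with no overlap (0.47 ± 0.15, adjusted p = 0.0419), but only the fits without wild-type replicate 2 or Ali35 replicate 3 kept the call. Irf7, the factor that amplifies interferon production, read 204, 363, 109 and 144 in Ali35 bone, against 58.0, 68.9, 64.1 and 36.1 in wild-type bone. Again replicate 2 was the highest Ali35 array and the groups did not overlap (1.75 ± 0.35, 3.36-fold, adjusted p = 0.00798). Irf9, the partner of Stat2, was not called on either probe (0.53 ± 0.18, adjusted p = 0.0567, and 0.40 ± 0.35).

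On the interferon gamma side, Jak2 fell on both tested probes. It read 228, 239, 294 and 222 in Ali35 bone on probe ILMN_3115162, against 368, 337, 356 and 387 in wild-type bone (-0.57 ± 0.12, adjusted p = 0.00874). The brighter probe had -0.39 ± 0.11 and was not called without wild-type replicates 1, 2 or 3 or Ali35 replicates 1 or 4. The receptor chain gene Ifngr2 gave a mixed picture. Its 2 dimmer probes fell, with changes of -0.88 ± 0.12 and -0.89 ± 0.13 and no overlap, whereas the brightest probe had 0.17 ± 0.17 and was not called, so no direction is given for the gene. The genes of the interferons themselves, Ifna1, Ifnb1 and Ifng, were below the filter in bone, as was the receptor gene Ifnar1, and the tested probes of Ifnar2 had 0.27 ± 0.12 and 0.29 ± 0.14 and were not called.

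In the brain of pups, most ISGs were below the filter and no member passed. Only 14 of the 41 member genes (18 probes) reached the filter, and 27 genes did not, among them Isg15, Usp18, Mx2, Parp14, Tap1, Tap2 and Igtp. Of the 18 probes, 0 were called in limma, beside 3.64% of the 10922 tested in brain (1.90% higher and 1.74% lower). An unadjusted p under 0.05 was found for 6 of the 18 (33.3%), beside 23.6% of all tested probes. The median log2 change was 0.03 over the 18 probes and 0.01 over all tested probes, with 11 positive and 7 negative values.

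The groups did not overlap for 4 brain probes, 2 with Ali35 higher (beside 8.78% of all tested probes) and 2 with Ali35 lower (beside 6.88%). Eif2ak2 read 85.7, 82.5, 79.8 and 76.6 in Ali35 brain, against 55.9, 64.9, 63.7 and 66.4 in wild-type brain, the lowest adjusted p of the members in brain (0.37 ± 0.09, adjusted p = 0.0506). Gbp2 lay near the floor, at 19.0 to 21.2 in Ali35 brain and 12.9 to 18.3 in wild-type brain (0.28 ± 0.09). Ifi27 was lower on both probes without passing. Probe ILMN_2681232 read 106, 80.9, 87.0 and 66.5 in Ali35 brain, against 109, 125, 109.5 and 121 in wild-type brain (-0.47 ± 0.14, adjusted p = 0.0803), and the other probe had -0.53 ± 0.18.

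Rsad2, so bright in bone, read 17.8, 25.2, 14.3 and 6.50 in Ali35 brain, against 33.4, 52.8, 25.4 and 21.3 in wild-type brain. The groups overlapped at 1 array each and the probe was not called (-0.76 ± 0.26, adjusted p = 0.118). The brightest member in brain was Irgm1, whose probe ILMN_2804037 read 837 to 1303 in Ali35 brain and 864 to 1028 in wild-type brain and was not called (0.22 ± 0.14). The probes of Gbp3 disagreed, at -0.52 ± 0.19 and 0.15 ± 0.11. Ifitm3 read 125 to 163 in Ali35 brain and 136 to 151 in wild-type brain (0.04 ± 0.10). The bright Adar probe read 117 to 139.5 in Ali35 brain and 123 to 156 in wild-type brain (-0.04 ± 0.11). Ali35 brain replicate 2 was the highest Ali35 array for 10 of the 18 probes, and the medians of the 4 Ali35 arrays ran from -0.14 to 0.19. Ali35 brain replicate 1 stood apart by bone and neutrophil markers, with 123 for an Ibsp probe (at most 8.29 on the other brain arrays) and 55.9 for an Ltf probe (at most 9.70), and without it 0 member probes were called. The erythroid gene Alas2 was called lower in Ali35 brain (2.28-fold). Of the glia markers, 2 of 6 tested probes were called lower, of Gfap (1.49-fold) and Aldh1l1 (1.63-fold), and 0 higher. The brightest glia marker, Slc1a3, was not called (0.26 ± 0.09). Of the neuron markers, 1 of 6 tested probes was called lower, of Map2 (1.39-fold), and 0 higher. Microglia markers summed to 168 to 190 in Ali35 brain and 195 to 215 in wild-type brain. Their median log2 change was -0.18 over 5 tested probes, with 0 called. Choroid plexus markers summed to 3530 to 3971 in Ali35 brain and 4474 to 5755.5 in wild-type brain, with 0 calls on 1 tested probe. The part of these markers in the brain values was not tested. Of the pathway genes in brain, 0 of 11 tested were called in limma, and 4 of their 15 probes had an unadjusted p under 0.05, near the 23.6% of all brain probes.

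**Figure D4:**
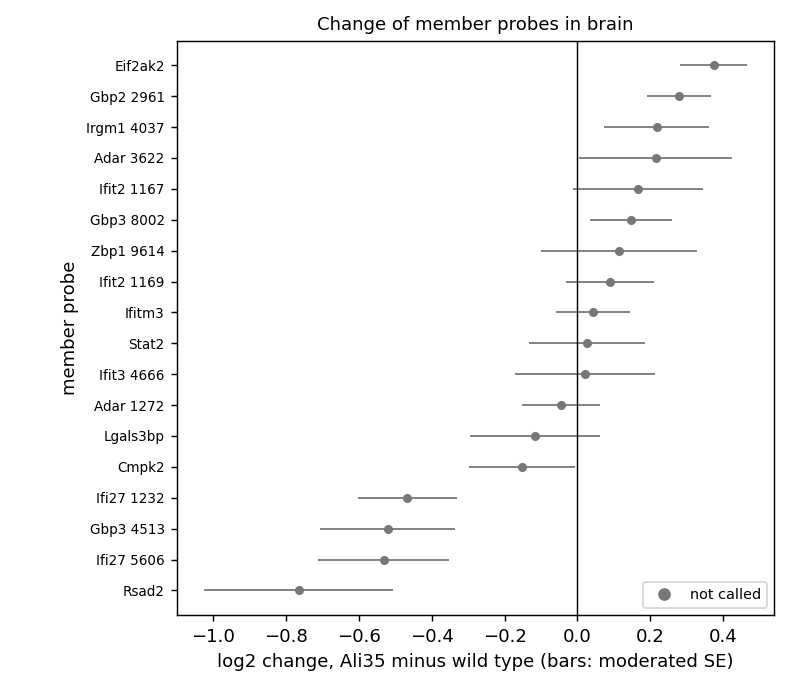
Log2 change of the 18 member probes tested in brain, Ali35 minus wild type, with the moderated SE as bars. None was called, and the values run from -0.76 for Rsad2 to 0.37 for Eif2ak2.

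The difference between tissues was tested as an interaction over the 9225 probes that passed the filter in both (the bone change minus the brain change). For the members this covered 18 probes of 14 genes, since 11 of the 19 probes called in bone were below the filter in brain. It was called for 8 of the 18 (7 genes), all with the more positive change in bone, beside 24.4% of the 9225 probes. The difference was 1.44 ± 0.26 for Lgals3bp (adjusted p = 0.00116), 1.39 ± 0.21 for an Adar probe, 1.36 ± 0.30 for Rsad2 and 0.75 ± 0.17 for Ifitm3. In brain, Lgals3bp and Rsad2 each had 2 Ali35 arrays below 16, and the Rsad2 change there was -0.76 and not called. Ifi27 differed on both probes (0.86 ± 0.21 and 1.06 ± 0.23), and Cmpk2 and 1 of 2 Gbp3 probes differed by 0.69 ± 0.23 and 0.74 ± 0.25. Eif2ak2 had 0.09 ± 0.18, Stat2 0.50 ± 0.27 and Ifit3 1.18 ± 0.42 (adjusted p = 0.0501), none of them called. Tissue, age and the separate normalization of the 2 tissues cannot be told apart in this difference.

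**Figure D5:**
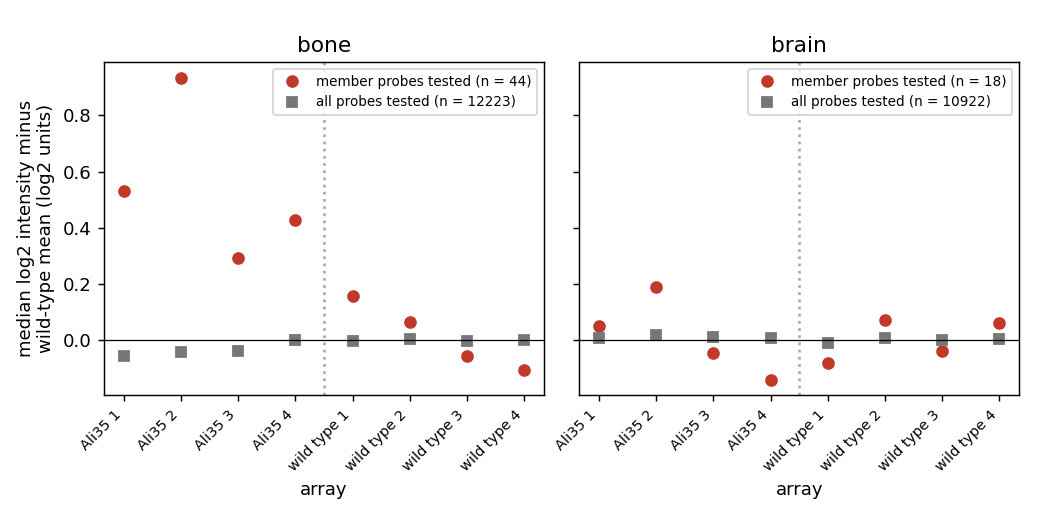
Median over probes of the log2 intensity minus the wild-type mean, for each array in bone (left) and brain (right), with member probes as red circles and all tested probes as grey squares. In bone the 4 Ali35 arrays sit between 0.29 and 0.94 and the wild-type arrays between -0.11 and 0.16, while in brain the Ali35 arrays sit between -0.14 and 0.19.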

How the data were processed

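Total RNA from bone and brain had been labelled with biotin as cRNA and hybridized to Illumina one-colour arrays, per the labels' protocols, and the submitters' processing notes name GenomeStudio 2011.1. The deposited values are linear intensity values of each probe, background-subtracted (values below 0 occur) and normalized within each tissue (the 8 arrays have nearly equal quartiles); the normalization method is not given in the sources used here. Another, non-normalized table of 32 columns, whose names matched no label, was not used. The number of arrays limits the precision, and the labels give each sample its own mouse.

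Values below 16 were set to 16 before log2. Separate fits for bone and brain were made in limma 3.58.1 (R 4.3.3, lmFit and eBayes), two-sided, over all probes that passed the filter, and p-values were adjusted over all of them. The interaction was fitted over all 16 arrays. All 44 members were named, with the values of each array for called probes and the change of the other tested probes. The pathway list held 27 genes. The members, the lists, the floor, the filter and the tests were chosen with earlier results of these data known. Symbols came from the platform annotation (23978 of 25697 probes), updated through Entrez identifiers in RefSeq, GRCm38.p6 (23962 found). Samples were grouped by their titles. The fits were tested on simulated data. Alternatives covered the floor, filter, scaling, transform, variance model, replicate block, shared spread, threshold and each array left out. Figures were drawn with matplotlib 3.10.9.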

Additional observations from a re-analysis of the deposited data

Results flagged for a closer look

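Within groups of 4 arrays, 3 of the 124 sets of member values had 1 array far from the other 3, where chance gives about 1 in 20. In wild-type bone, Rsad2 read 6257 on replicate 2 and 5768 to 5838 on the other arrays. In Ali35 bone, Ifi27 probe ILMN_2681232 read 2419.8 on replicate 3 and 3204 to 3352 on the others. In wild-type bone, Adar probe ILMN_2704372 read 37.0 on replicate 4 and 48.1 to 50.3 on the others. None of these was Ali35 bone replicate 2, the array that was most often the highest.

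The change in bone differed from the change in brain, by the interaction test, for 8 member probes. The bone change minus the brain change was 1.36 for Rsad2 (adjusted p = 0.00417), 1.44 for Lgals3bp (0.00116), 0.74 for Gbp3 probe ILMN_1244513 (0.0407), 0.75 for Ifitm3 (0.00524), 0.69 for Cmpk2 (0.0357), 0.86 and 1.06 for the Ifi27 probes (0.00713 and 0.00433) and 1.39 for Adar probe ILMN_3021272 (0.000406), all in limma. The brain change itself was not called for any of these probes. Lgals3bp and Rsad2 lay near the floor in brain, each with 2 Ali35 arrays below 16.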

How the results depend on the processing

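With no filter on dim probes, 6 member probes were called in bone (19 with the filter), beside 5.56% of all probes. Then 14 member probes of 12 genes differed between tissues (8 probes of 7 genes with the filter), beside 8.54% of all probes (24.4% with the filter). For a probe below 16 on every brain array, the floor leaves no brain change, so that difference only repeats the bone change. In bone, 3 pathway probes were called (6 with the filter). More dim probes then entered the fit and the adjustment. At an adjusted p under 0.01, 8 member probes were called in bone, beside 8.46% of all probes, and with a floor of 32, 15 member probes, beside 22.6%. Without Ali35 bone replicates 1 and 2 together, chosen after seeing the data, 10 member and 3 pathway probes were called, beside 13.2% of all probes. Leaving out single arrays gave 13 to 22 called member probes in bone with medians of 0.36 to 0.61, beside 13.6% to 21.9% of all probes called. It gave 0 called member probes in brain, beside 0.398% to 2.22%, and 6 to 9 differences between tissues, beside 19.1% to 24.5%. In brain 1 member probe was called with a floor of 32, with 16 or more required on all 8 arrays (both Eif2ak2, higher), with an intensity trend and robust spread (Ifi27, lower), with the replicate block and in 1 fit of all 16 arrays (both Rsad2, lower); the last also called 1 pathway probe (Jak2). In bone, 1 fit of all 16 arrays called 28 member probes, beside 34.6% of all probes (24.6% in separate fits). Same-numbered mice did not deviate together (correlations from -0.12 to 0.16), so the numbers do not pair them; with the replicate block 21 member probes were called in bone. No called probe changed direction in 474 comparisons with an alternative, and 75 calls were lost. The non-normalized table could not be assigned to samples, so normexp was not run. Over all probes, 3006 were called in bone, but 1430 with no filter, 1765 and 1639 without wild-type replicates 1 and 4, and 1565 without Ali35 replicates 1 and 2; in brain 398 were called, and 19 with no filter, 248 with a floor of 8, 850 with the trend and robust spread, 206 with the replicate block, 947 in 1 fit of 16 arrays, and 43 to 240 when 1 array was left out.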
